A study of Mus musculus with 30 samples.

Results

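The 52 genes described here code for proteins that build ribosomes: subunits and factors of RNA polymerase I, nucleolar chaperones, proteins of small nucleolar ribonucleoproteins (snoRNPs) and assembly factors of the small and the large ribosomal subunit. They were taken from a list of mouse gene symbols and matched to the count table through their Ensembl identifiers, and all 52 were found among the 57186 identifiers of the table. RNA was sequenced in 2 mouse cell lines while protein synthesis was inhibited, to follow the transcriptome over time. One was NIH/3T3, a line of fibroblasts kept in DMEM with serum. The other was CGR8, a line of embryonic stem cells kept in N2B27 medium with 2i and LIF. The genotype of both lines, controls included, is given as ROSA26 SLT knock-in, and the labels do not say whether either line was 1 clone. Cycloheximide (CHX), an inhibitor of translation elongation, was used at 0.1 µg/mL. Each line was sampled at 0, 1, 2, 5 and 48 h with replicates A, B and C (3 per time), which gives 10 groups and 30 libraries. The 0 h libraries are the starting point of the time course and serve as controls. No library without CHX is listed for 1, 2, 5 or 48 h, so effects of CHX and of time in culture cannot be told apart. The lines also differ in medium. Nothing in the labels says that replicates came from separate cultures, so p-values measure only the spread between these samples, which may be technical.

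Ribosomes are made in the nucleolus. RNA polymerase I transcribes the precursor of the large ribosomal RNAs, box C/D and box H/ACA snoRNPs guide its methylation and pseudouridylation, and the small subunit processome and a series of large subunit assembly factors cleave, fold and export it together with ribosomal proteins. The pathway uses much of the energy of a growing cell, and the genes of these factors are known as a group that is transcribed at a high level in proliferating cells, MYC being one of its activators. In cells without protein synthesis, pre-rRNA processing is known to slow because new ribosomal proteins are missing.

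The libraries held 18.2 to 30.5 M counts each (M, mega; mean 24.2 ± 2.95 M, SD, n = 30). Most of the listed markers separated the lines as labelled. On the stem cell list of 8 genes, Tdgf1, Dppa5a, Esrrb, Zfp42, Nanog and Pou5f1 did not exceed 0.383 CPM (counts scaled by effective library size) in any NIH/3T3 library and reached at least 376 CPM in each CGR8 library. Sox2 was at 19.1 to 32.3 CPM in NIH/3T3 and 228 to 443 in CGR8, and Klf4 did not separate the lines (193 to 390 and 136 to 403 CPM). Of the 8 fibroblast markers Col1a1, Col1a2, Col3a1 and Lox were high in NIH/3T3 and under 1 CPM in CGR8, whereas the fibroblast markers Thy1 and Postn were near 0 in NIH/3T3. Fn1 was also present in CGR8 (388 to 1136 CPM, against 824 to 2050), and Pdgfrb was at 14.3 to 60.3 CPM in NIH/3T3 and 1.65 to 3.05 in CGR8. Of the markers of other cells a stem cell culture could hold, Gata6, Sox17, Elf5 and Fgf5 stayed under 1 CPM in each CGR8 library. Tfap2c reached 46.2 to 65 CPM there and Otx2 6.73 to 22.9 CPM. The others on that list were Gata4 (0.621 to 3.69 CPM in CGR8), Dab2 (0.186 to 1.98), Cdx2 (0.858 to 5.83), Pax6 (1.96 to 5.75) and Sox1 (1.78 to 4.42). Libraries of 1 group were unequally alike. The SD of a library's log2 deviations from its group mean ran from 0.0523 (NIH/3T3 48 h A) to 0.297 (NIH/3T3 1 h C), and the deviations followed transcript length with Spearman's rho between -0.70 (CGR8 5 h A) and 0.71 (CGR8 2 h B) across genes. NIH/3T3 1 h C and 2 h A and CGR8 0 h B, 2 h A, 5 h A and 5 h C stood farthest from their groups. In these bulk samples fewer cells of a type and less RNA per cell cannot be told apart, and CPM shows a gene's share of the mRNA, not its amount per cell. The exons of 19 members overlap those of an antisense gene in the annotation, and whether the counting used strand is not given in the sources used here, so for those genes reads of both partners may be mixed.

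In untreated cells the members spanned a wide range of levels per length. On the scale of both lines together, Npm1, which codes for the nucleolar histone chaperone nucleophosmin, had the highest level per kilobase of transcript in both lines, at 1628 ± 55.2 CPM per kb in NIH/3T3 and 2547 ± 204 in CGR8 (SD, n = 3). Ncl, which codes for nucleolin, came next, at 339 ± 19.5 and 427 ± 53.9 CPM per kb. In NIH/3T3 the range of Ncl (325 to 362) overlapped that of the third gene, Nop56 (309 to 334), so their order was not set beyond the spread. At the low end in NIH/3T3 were Rrp1b, at 12.5 ± 0.404 CPM per kb, and Polr1a, which codes for the largest subunit of RNA polymerase I, at 14.5 ± 0.615. In CGR8 the lowest were Wdr12 (13.8 ± 1.47 CPM per kb) and Noc3l (28.2 ± 1.93), and the ranges of Noc3l (26.2 to 30.1) and Polr1a (27.8 to 28.8) overlapped. Lengths are those of the annotated transcript with the longest coding sequence, and of the longest transcript where these tie. A gene that uses a shorter transcript therefore has its level understated.

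Untreated CGR8 had higher levels of most members than untreated NIH/3T3. Tests were edgeR quasi-likelihood tests across all genes, and a gene was called at a Benjamini-Hochberg (BH) adjusted p under 0.05. Of the 52 members 35 were called higher and 5 lower in CGR8, where 42.8% of all 17549 genes tested were higher and 36.3% lower. The median log2 difference (CGR8 minus NIH/3T3) was 0.43 over the members and 0.15 over all genes. The largest differences were 1.90 ± 0.10 (SE) for the large subunit factor Rrp1b (BH-adjusted p = 1.4e-16), 1.80 ± 0.11 for the processome component Heatr1 (adjusted p = 3.8e-15) and 1.43 ± 0.15 for Polr1c, a subunit shared by RNA polymerases I and III (adjusted p = 2.1e-09). The 5 members lower in CGR8 were Ebna1bp2 (-0.56 ± 0.11), Bop1 (-0.54 ± 0.12), Wdr12 (-0.49 ± 0.11), Utp18 (-0.32 ± 0.09) and Ddx18 (-0.24 ± 0.08). Bop1 and Wdr12 belong to 1 complex, PeBoW, whose remaining member Pes1 was higher in CGR8 by 0.32 ± 0.11. By role, 5 of 6 polymerase I genes, 12 of 14 small subunit genes and 11 of 19 large subunit genes were higher in CGR8. Removing each library's trend with transcript length gave 32 higher and 9 lower members.

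At 1 h no member was called in either line. In NIH/3T3 0.732% of 13941 genes (0.653% higher and 0.0789% lower) and in CGR8 0.27% of 15933 genes (0.144% and 0.126%) were called at that time. In NIH/3T3 6 members had an unadjusted p under 0.05 and in CGR8 0. Limma's voom with sample quality weights called 13 of the 52 members in NIH/3T3 at 1 h, beside 2881 of all 13941 genes. DESeq2 called 0 members, beside 265 of all genes. The count of 0 there depends on the tool, and so does the count over all genes. In CGR8 both tools called 0. The median log2 fold change of the members at 1 h was 0.04 in NIH/3T3, turning to -0.01 without NIH/3T3 1 h replicate C, and -0.04 in CGR8.

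At 2 h 13 members rose and 7 fell in NIH/3T3, against 16.1% of all genes higher and 18.9% lower. The members higher were 25% of the 52 and those lower 13.5%. The largest rises were those of Nip7 (0.85 ± 0.12, BH-adjusted p = 9.8e-05), a factor of late large subunit maturation, Polr1c (0.77 ± 0.12, adjusted p = 3.3e-04) and Mrto4 (0.54 ± 0.14, adjusted p = 0.0100), which helps to build the ribosomal stalk. Nip7 stood at 103, 114 and 109 CPM in the 0 h libraries A, B and C and at 190, 193 and 204 CPM at 2 h. The groups did not overlap. The largest falls were those of Tcof1 (-0.60 ± 0.10, adjusted p = 4.0e-04), whose product treacle brings factors to the ribosomal DNA, Polr1b (-0.40 ± 0.09, adjusted p = 0.00262), which codes for the second largest polymerase I subunit, and Ncl (-0.38 ± 0.09, adjusted p = 0.00462). Tcof1 went from 197, 185 and 208 CPM to 135, 126 and 127 CPM. With the length trend removed Ncl was at -0.08 and no longer called. Of the 6 chaperone and scaffold genes 4 fell (Ncl, Nolc1, Tcof1 and Lyar) and none rose. Nop56 shows how far the 2 h libraries lay apart: it was at 582, 578 and 612 CPM at 0 h and at 531, 752 and 832 CPM at 2 h, with replicate A under all 0 h libraries and the other two above them. Without NIH/3T3 2 h replicate A 18 members were higher and 12 lower, 30 in all against 20. Without NIH/3T3 0 h replicate A 8 were higher and 6 lower, and without 0 h replicate C 12 and 3.

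In CGR8 only 3 members were called at 2 h, 1 higher and 2 lower, against 8.97% and 11% of all genes (19.9% in either direction). Nip7 rose by 0.55 ± 0.14 (BH-adjusted p = 0.0147), with 257, 326 and 275 CPM at 0 h and 471, 325 and 462 CPM at 2 h. The groups overlapped, since 2 h replicate B (325) was below 0 h replicate B (326). Tcof1 fell by 0.38 on the log2 scale (SE 0.09, adjusted p = 0.0133) and Polr1b by 0.33 (SE 0.10, adjusted p = 0.0366). The count ranged from 0 to 10 when single libraries were left out: it was 0 without CGR8 0 h replicate A or without CGR8 2 h replicate C, 1 without 0 h replicate C, 9 without 2 h replicate A and 10 without 2 h replicate B. No member was called for a difference between the lines in the 1 h or the 2 h response, where 0.16% (0.0171% higher in CGR8) and 2.02% of all genes were called. At 2 h 1 member had an unadjusted p under 0.05 for that difference, and at 1 h 0, and DESeq2 and voom called 0 at both times.

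**Figure D1:**
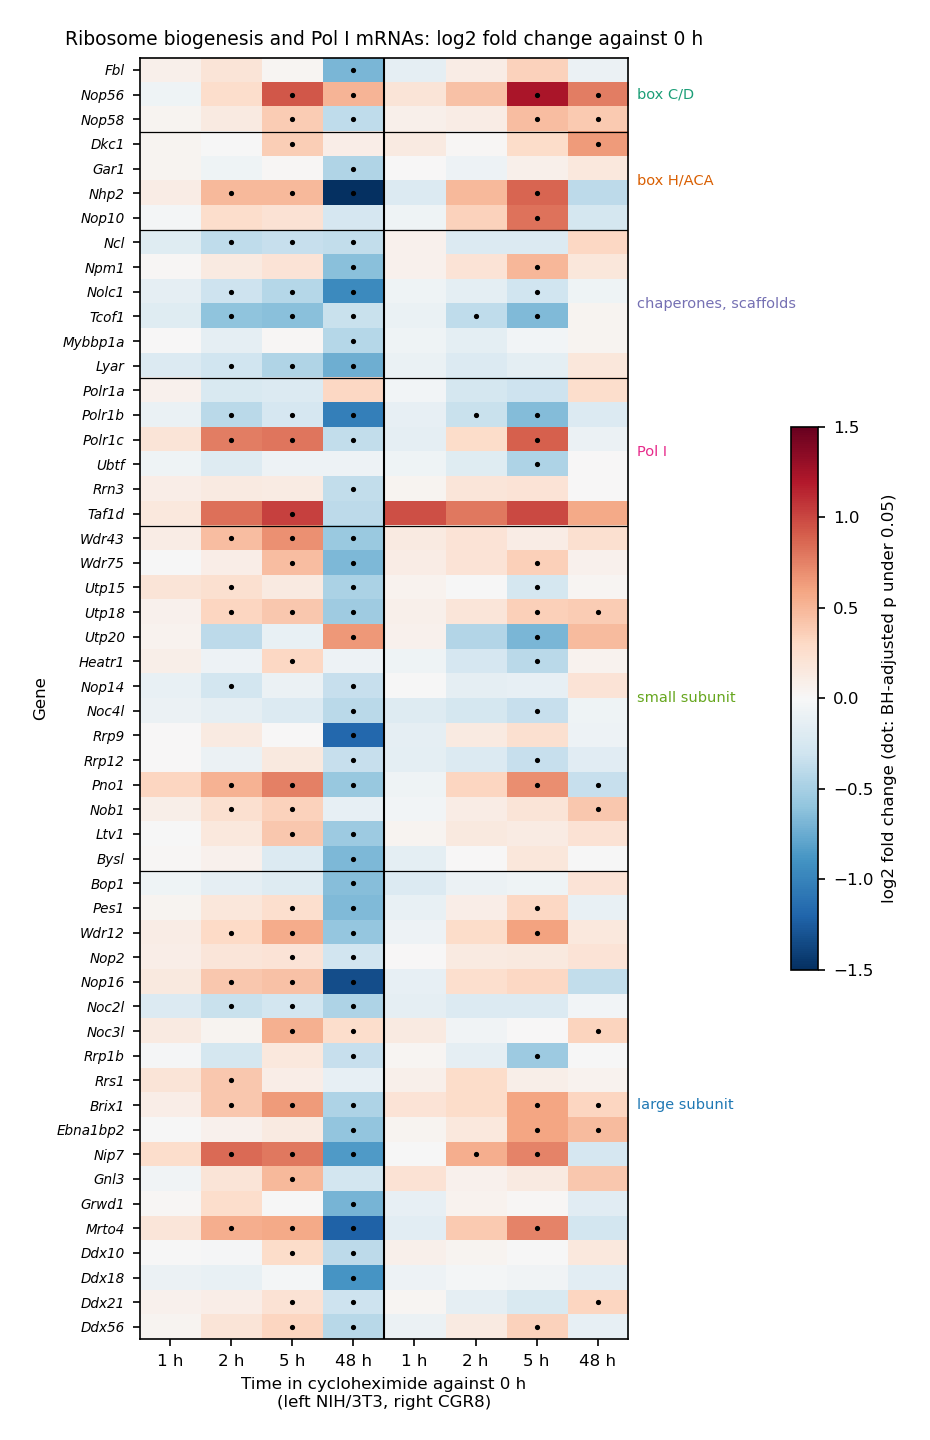
Log2 fold change against 0 h of the 52 members (rows, grouped by role) at 1, 2, 5 and 48 h in NIH/3T3 (4 left columns) and CGR8 (4 right columns), where red is higher, blue is lower and a dot marks a BH-adjusted p under 0.05. The 48 h column of NIH/3T3 holds 40 falls and 3 rises, and that of CGR8 holds 9 rises and 1 fall.

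At 5 h 25 members rose and 6 fell in NIH/3T3. The members higher were 48.1% of the 52, against 24% of all genes, and those lower 11.5%, against 27.1% (either direction 59.6% against 51%). The 0 h and 5 h libraries did not overlap for 42 members, as for 66.9% of all genes. The median log2 fold change was 0.20 over the members and -0.01 over all genes. Among the box C/D proteins, Nop56 rose by 0.93 ± 0.12 (BH-adjusted p = 1.2e-05), from 582, 578 and 612 CPM to 1145, 1139 and 1087 CPM, and its partner Nop58 rose by 0.38 ± 0.09 (adjusted p = 0.00195), while the methyltransferase gene Fbl was at 142, 136 and 128 CPM against 129, 126 and 142 CPM and was not called. The 3 genes of this complex thus gave different values at 1 time point. In the polymerase I group Polr1c rose by 0.80 ± 0.12 (adjusted p = 6.0e-05), from 65, 78.8 and 76.4 CPM to 133, 131 and 120 CPM. Taf1d, a subunit of the polymerase I selectivity factor SL1, had the largest fold change (1.02 ± 0.37, adjusted p = 0.0288), from 70.4, 67.9 and 63.1 CPM to 133, 143 and 132 CPM. The call was lost when any single library of the 6 was left out.

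The late small subunit factor Pno1 rose by 0.76 ± 0.12 at 5 h in NIH/3T3 (BH-adjusted p = 8.6e-05), from 132, 158 and 141 CPM to 242, 244 and 243 CPM. Of the 14 small subunit genes 7 rose (Wdr43, Wdr75, Utp18, Heatr1, Pno1, Nob1 and Ltv1) and none fell. Of the 19 large subunit genes 12 rose, with Nip7 at 0.79 ± 0.12 (adjusted p = 4.7e-05), and Noc2l fell by 0.28. The falls were otherwise Tcof1 (-0.63 ± 0.10, adjusted p = 7.1e-05), Lyar (-0.45 ± 0.08, adjusted p = 2.0e-04), Nolc1 (-0.43 ± 0.08, adjusted p = 3.2e-04), Ncl (-0.35 ± 0.09, adjusted p = 0.00357) and Polr1b (-0.25 ± 0.09). With the length trend removed Ncl was at -0.16 and no longer called. Lyar and Nolc1 code for a nucleolar zinc finger protein and for Nopp140, a chaperone of snoRNPs. Lyar was at 180, 164 and 184 CPM at 0 h and at 125, 128 and 135 CPM at 5 h, so the groups stood well apart.

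At 5 h 16 members rose and 10 fell in CGR8, against 24.9% of all genes higher and 27.2% lower. The members higher were 30.8% of the 52 and those lower 19.2%, and the groups did not overlap for 28 members, as for 54.7% of all genes. With library size alone in place of TMM scaling, which moved the median of all genes to -0.12, 13 were higher and 15 lower, and with the length trend removed 23 were higher and 5 lower, so the split between rises and falls rests on these choices. Nop56 had the largest called rise (1.22 ± 0.17, BH-adjusted p = 2.8e-05), from 542, 446 and 576 CPM to 1416, 1087 and 1127 CPM. Polr1c rose by 0.90 ± 0.16 (adjusted p = 2.8e-04), and its CGR8 5 h libraries read 445, 400 and 297 CPM against 189, 242 and 180 CPM at 0 h. The H/ACA proteins Nhp2 and Nop10, which sit on the guide RNA beside the pseudouridine synthase dyskerin, rose by 0.87 ± 0.17 (adjusted p = 5.4e-04) and 0.82 ± 0.13 (adjusted p = 1.1e-04). Npm1 rose by 0.50 ± 0.11 (adjusted p = 0.00119), from 3905, 4189 and 4602 CPM to 6152, 6182 and 5595 CPM. For the dyskerin gene Dkc1 itself the values were 0.28 ± 0.16 at 5 h in CGR8, which was not called, and 0.37 ± 0.10 in NIH/3T3, which was.

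The falls in CGR8 at 5 h were led by Utp20 (-0.68 ± 0.18, BH-adjusted p = 0.00548), Tcof1 (-0.66 ± 0.10, adjusted p = 4.3e-05) and Polr1b (-0.65 ± 0.10, adjusted p = 1.1e-04). Tcof1 had the tightest values, with 437, 410 and 423 CPM at 0 h and 270, 269 and 267 CPM at 5 h. Utp20, a large scaffold protein of the processome, was at 347, 284 and 359 CPM at 0 h and at 146, 224 and 249 CPM at 5 h. Ubtf, which codes for the factor UBF on ribosomal DNA, fell by 0.46 on the log2 scale (SE 0.08, adjusted p = 2.1e-04), from 438, 428 and 433 CPM to 320, 316 and 305 CPM. In NIH/3T3 Ubtf was at 302, 298 and 303 CPM at 5 h against 307, 312 and 333 CPM at 0 h and was not called. The calls of Utp20 and Ubtf were lost when the length trend was removed (Ubtf then at -0.11 and Utp20 at -0.11), whereas Tcof1 and Polr1b stayed called at smaller values (-0.31 and -0.39).

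The same direction was called in both lines at 5 h for 13 rises, which is 52% of those in NIH/3T3 and 81.2% of those in CGR8. The overlap over all genes was not counted, so these shares do not set the members apart from other genes. The 13 shared rises were Nop56, Nop58, Nhp2, Polr1c, Wdr75, Utp18, Pno1, Pes1, Wdr12, Brix1, Nip7, Mrto4 and Ddx56. Tcof1, Polr1b and Nolc1 fell in both. Heatr1 was called in opposite directions, at 0.31 ± 0.09 in NIH/3T3 (BH-adjusted p = 0.00938) and -0.41 ± 0.12 in CGR8 (adjusted p = 0.00773). In CGR8 its value turned to 0.10 with the length trend removed.

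The difference between the lines in the 5 h response was called for 6 members, 2 higher and 4 lower in CGR8, against 8.18% and 5.09% of all genes. The differences (CGR8 minus NIH/3T3) were 0.68 ± 0.18 for Nop10 (BH-adjusted p = 0.0123), 0.54 ± 0.16 for Ebna1bp2 (adjusted p = 0.0267), -0.64 ± 0.15 for Heatr1 (adjusted p = 0.00355), -0.61 ± 0.13 for Rrp1b (adjusted p = 0.00263), -0.48 ± 0.12 for Wdr43 (adjusted p = 0.0100) and -0.30 ± 0.10 for Ubtf (adjusted p = 0.0407). Rrp1b was at 60, 58.6 and 61.2 CPM at 0 h and 62.6, 67.6 and 70.5 CPM at 5 h in NIH/3T3, and at 226, 227 and 239 CPM and then 148, 160 and 169 CPM in CGR8. The split was 1 higher and 9 lower with library size alone and 1 higher and 7 lower with RLE factors. Without CGR8 5 h replicate A it was 0 higher and 8 lower, without replicate B 0 and 9, and without replicate C 6 and 6. Leaving out CGR8 0 h replicate B gave 3 and 6. The call of Nop10 was lost without CGR8 5 h replicate A or B. Those of Ebna1bp2 and Ubtf were each lost under 11 of 21 alternatives, many of them single libraries left out. The calls of Heatr1, Rrp1b and Wdr43 held under each alternative.

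Transcript length moved with the early changes, and its part in them was not tested. At 5 h in CGR8 Spearman's rho between length and log2 fold change was -0.58 across the 52 members and -0.47 across 15590 genes, and in NIH/3T3 it was -0.30 and -0.28. Of the 17 members under 2 kb 8 rose and none fell in CGR8 at 5 h (median 0.35, against 0.40 for all genes of that length). Of the 22 members from 2 to 4 kb 6 rose and 3 fell (median 0.12, against -0.09), and of the 13 members of 4 kb or more 2 rose and 7 fell (median -0.31, against -0.45). The medians of the members in CGR8 were thus below that of all genes in the shortest class and above it in the other two. In NIH/3T3 at 5 h the members' medians were above those of all genes in each class: 0.34 against 0.20 under 2 kb, 0.17 against -0.09 from 2 to 4 kb, and 0.13 against -0.19 above. At 2 h rho across the members was -0.53 in NIH/3T3 and -0.57 in CGR8. Genes are not independent replicates, and the points share their libraries. The lengths used for Ncl (8202 bases, 2121 of them coding), Nop58 (9507 and 1608) and Wdr12 (10012 and 1269) are mostly non-coding. If these genes use shorter transcripts, their length class and their values with the length trend removed are off.

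**Figure D2:**
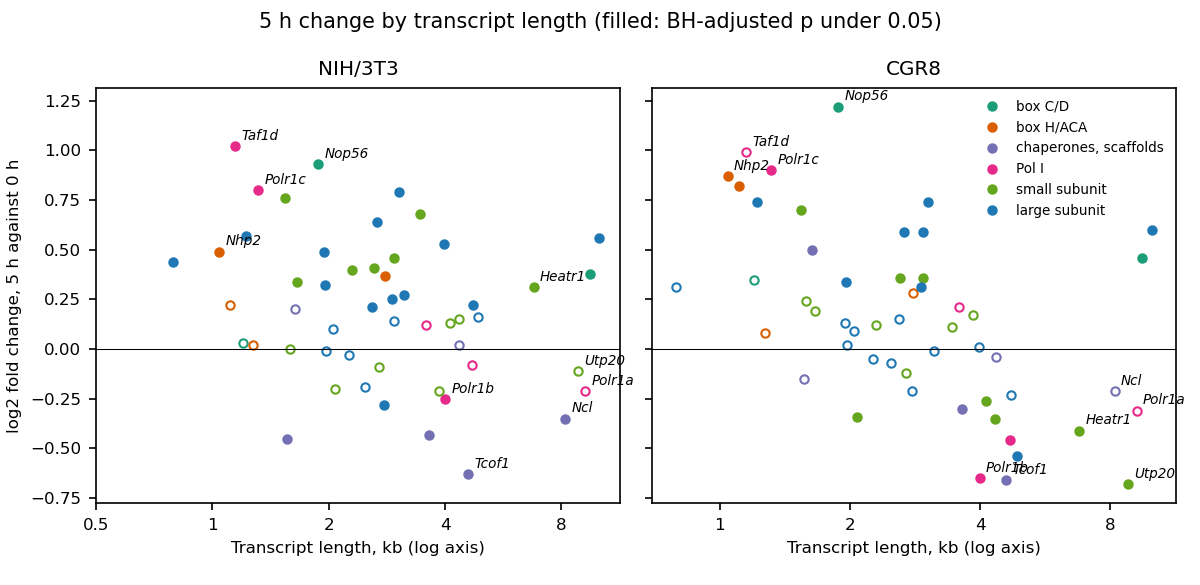
Log2 fold change at 5 h against transcript length (log axis, kb) for the 52 members in NIH/3T3 (left) and CGR8 (right), coloured by role, with filled points called. In CGR8 none of the 17 members under 2 kb fell, and Tcof1, Utp20 and Heatr1 are among the long ones that did.

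At 48 h most members were lower than at the start in NIH/3T3. Of the 52 members 40 fell and 3 rose, against 25.6% of all genes lower and 26.7% higher. The median log2 fold change was -0.44 over the members and -0.01 over all genes. In each of the 3 libraries 47 of the 52 members lay below their 0 h mean, and the medians per library were -0.44, -0.45 and -0.44. The 0 h and 48 h libraries did not overlap for 49 members, as for 70% of all genes. The 48 h libraries of NIH/3T3 were the most alike of the 10 groups, with SDs of log2 deviations up to 0.0537. The summed level of the 8 fibroblast markers, scaled by library size alone, moved with time in this line. It was 7872 to 8419 CPM at 0 h, 5917 to 6952 at 5 h and 12146 to 12536 at 48 h. Thy1 and Postn were near 0 throughout. The part of this sum in the members' share of the mRNA was not tested.

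The largest falls at 48 h in NIH/3T3 were those of Nhp2, Nop16 and Mrto4. Nhp2 fell to 35.6% of its 0 h level (log2 fold change -1.49 ± 0.15, BH-adjusted p = 6.8e-07), from 263, 262 and 293 CPM to 95.8, 93.1 and 102 CPM. Nop16, a large subunit factor, was at 76.3, 85.1 and 88.5 CPM at 0 h and at 33.6, 31.6 and 34.2 CPM at 48 h (-1.33 ± 0.12, adjusted p = 2.8e-07). Mrto4 went from 159, 170 and 182 CPM to 73.7, 72.5 and 75.3 CPM (-1.21 ± 0.15, adjusted p = 5.4e-06). In all 3 genes each 48 h library was far below the lowest 0 h library.

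Of the 3 box C/D genes 2 fell and 1 rose at 48 h in NIH/3T3, and of the 4 box H/ACA genes 2 fell (Nhp2 and Gar1). Fbl went from 129, 126 and 142 CPM to 85.2, 78.3 and 81.9 CPM (-0.69 ± 0.14, BH-adjusted p = 6.2e-04). Nop58 fell by 0.38 on the log2 scale (SE 0.09, adjusted p = 0.00176). Against these, Nop56 rose by 0.51 ± 0.12 (adjusted p = 0.00201), to 861, 822 and 835 CPM, and Dkc1 was not called, with 198, 194 and 203 CPM against 182, 196 and 178 CPM at 0 h. All 6 chaperone and scaffold genes fell. Npm1, the most abundant of them per length, went from 2667, 2704 and 2493 CPM to 1661, 1658 and 1773 CPM (-0.63 ± 0.11, adjusted p = 1.4e-04). Ncl fell by 0.37 (SE 0.09, adjusted p = 0.00239), to 2119, 2087 and 2169 CPM, a level like that of 5 h (2132, 2132 and 2193 CPM).

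The 6 polymerase I genes divided at 48 h in NIH/3T3. Polr1b fell to 48.9% of its 0 h level (-1.03 ± 0.09, BH-adjusted p = 1.2e-07), from 101, 92.5 and 101 CPM to 48.9, 46.8 and 48.3 CPM. Rrn3, which codes for the initiation factor TIF-IA that makes the polymerase competent to start, fell by 0.37 (SE 0.07, adjusted p = 6.4e-04), and Polr1c, which had risen at 5 h, fell by 0.37 (SE 0.12, adjusted p = 0.0199) relative to 0 h. Polr1a was at 164, 165 and 159 CPM against 136, 127 and 133 CPM at 0 h, which did not pass the test (0.31 ± 0.13, adjusted p = 0.0544). It was called under 6 alternatives and turned to -0.20 when the length trend was removed, the Polr1a transcript being among the longest of the members. Ubtf (-0.08 ± 0.07, adjusted p = 0.410) and Taf1d (-0.39 ± 0.37, adjusted p = 0.398) were not called.

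Of the 14 small subunit genes 11 fell and 1 rose at 48 h in NIH/3T3. Rrp9, a protein of the U3 snoRNP, fell to 42.2, 41.4 and 41.8 CPM from 83.7, 96.8 and 103 CPM (-1.18 ± 0.11, BH-adjusted p = 3.4e-07), and Ltv1, which escorts the small subunit out of the nucleus, fell by 0.54 (SE 0.09, adjusted p = 1.6e-04). Utp20 rose by 0.65 ± 0.15 (adjusted p = 0.00214), from 169, 160 and 145 CPM to 253, 253 and 238 CPM, and by 0.18 with the length trend removed. Heatr1 (-0.08 ± 0.09) and the endonuclease Nob1 (-0.12 ± 0.09) were not called. Of the 19 large subunit genes 16 fell and 1, Noc3l, rose (0.26 ± 0.10, adjusted p = 0.0329). The call of Noc3l was lost without any of 5 single libraries (0 h A or C, 48 h A, B or C). The 3 PeBoW genes fell by like amounts: Pes1 by 0.66 (SE 0.09, adjusted p = 2.1e-05), Bop1 by 0.64 (SE 0.10, adjusted p = 8.9e-05) and Wdr12 by 0.58 (SE 0.10, adjusted p = 9.8e-05). The 3 members of PeBoW had differed in direction between the untreated lines.

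In CGR8 at 48 h 9 members rose and 1 fell, against 12.2% of all genes higher and 15.6% lower. The median log2 fold change was 0.05, against 0.00 over all genes. Nop56 rose by 0.77 ± 0.17 (BH-adjusted p = 0.00261), to 836, 967 and 856 CPM from 542, 446 and 576 CPM. Dkc1 rose by 0.64 ± 0.16 (adjusted p = 0.00593), from 432, 377 and 485 CPM to 636, 701 and 684 CPM, and Ebna1bp2 by 0.48 ± 0.13 (adjusted p = 0.00970). The other rises were those of Nop58 (0.39 ± 0.10), Utp18, Nob1, Noc3l, Brix1 and Ddx21. Pno1 fell by 0.35 (SE 0.12, adjusted p = 0.0352), from 167, 202 and 177 CPM to 135, 146 and 145 CPM, a call that was lost with RLE factors, without a filter on low counts, with the length trend removed and without any of 5 single libraries (0 h B or C, 48 h A, B or C). Npm1 (0.17 ± 0.11, adjusted p = 0.250) and Ncl (0.31 ± 0.12, adjusted p = 0.0543) were not called, though Ncl was called with RLE factors, DESeq2 and voom and without CGR8 0 h replicate C (0.41). No polymerase I gene and no chaperone gene was called at 48 h in CGR8 by the edgeR test with TMM factors. The split was 6 higher and 3 lower with library size alone and 11 higher and 0 lower with RLE factors. It was 5 and 1 without CGR8 0 h replicate A, 6 and 0 without 0 h B or without 48 h C, and 4 and 0 without 48 h replicate B.

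**Figure D3:**
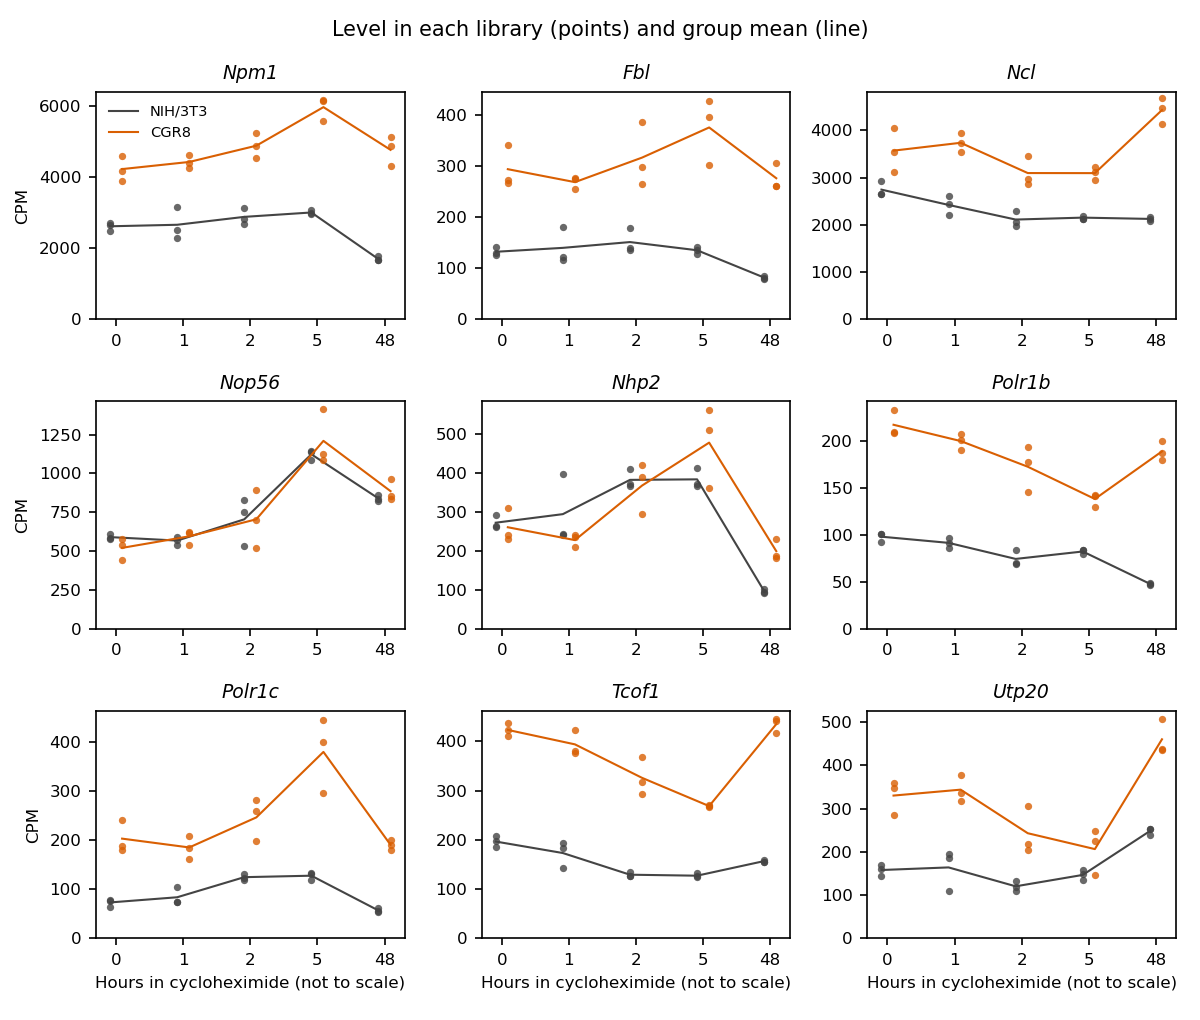
CPM of 9 members in each library (points) and the group means (lines) at 0, 1, 2, 5 and 48 h (evenly spaced, not to scale) in NIH/3T3 (grey) and CGR8 (orange), each line on its own scaling. Nop56 is highest at 5 h in both lines, and at 48 h Npm1, Fbl, Nhp2 and Polr1b lie below all their 0 h libraries in NIH/3T3.

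The 48 h response differed between the lines for 33 members, all of them higher in CGR8, against 9.78% of all genes higher and 12.1% lower (21.9% in either direction). The median difference (CGR8 minus NIH/3T3) was 0.56 over the members and -0.03 over all genes. The largest were 1.09 ± 0.24 for Nhp2 (BH-adjusted p = 0.00133), 1.08 ± 0.19 for Rrp9 (adjusted p = 1.0e-04) and 1.05 ± 0.16 for Ebna1bp2 (adjusted p = 2.2e-05). Ebna1bp2 went from 250, 256 and 274 CPM to 175, 164 and 179 CPM in NIH/3T3 and from 174, 187 and 185 CPM to 227, 286 and 249 CPM in CGR8. It was called lower in one line and higher in the other, as were Nop58, Utp18, Brix1 and Ddx21. In CGR8 the call of Nop58 was lost with the length trend removed (0.23) and that of Ebna1bp2 without CGR8 48 h replicate B (0.38). Those of Brix1 and Ddx21 were lost with library size alone, without a filter, and without CGR8 0 h replicate A or B or 48 h replicate B or C. Npm1 differed by 0.78 ± 0.15 (adjusted p = 2.4e-04), Polr1b by 0.81 ± 0.13 (adjusted p = 3.6e-05) and Ncl by 0.66 ± 0.14 (adjusted p = 7.0e-04).

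By role, the 48 h difference was called for 1 of 3 box C/D, 3 of 4 box H/ACA, 5 of 6 chaperone, 2 of 6 polymerase I, 9 of 14 small subunit and 13 of 19 large subunit genes. The smallest differences were those of Utp20 (-0.19 ± 0.25), Polr1a (-0.06 ± 0.19) and Nop10 (-0.03 ± 0.18), none of them called. The count stayed between 29 and 40 over all alternatives and 28 of the 33 genes were called in each of them. Of the 43 members called in NIH/3T3 at 48 h 39 were called under each alternative and none changed direction. With the length trend removed, 3 rose and 41 fell in NIH/3T3, and 36 differed between the lines.

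**Figure D4:**
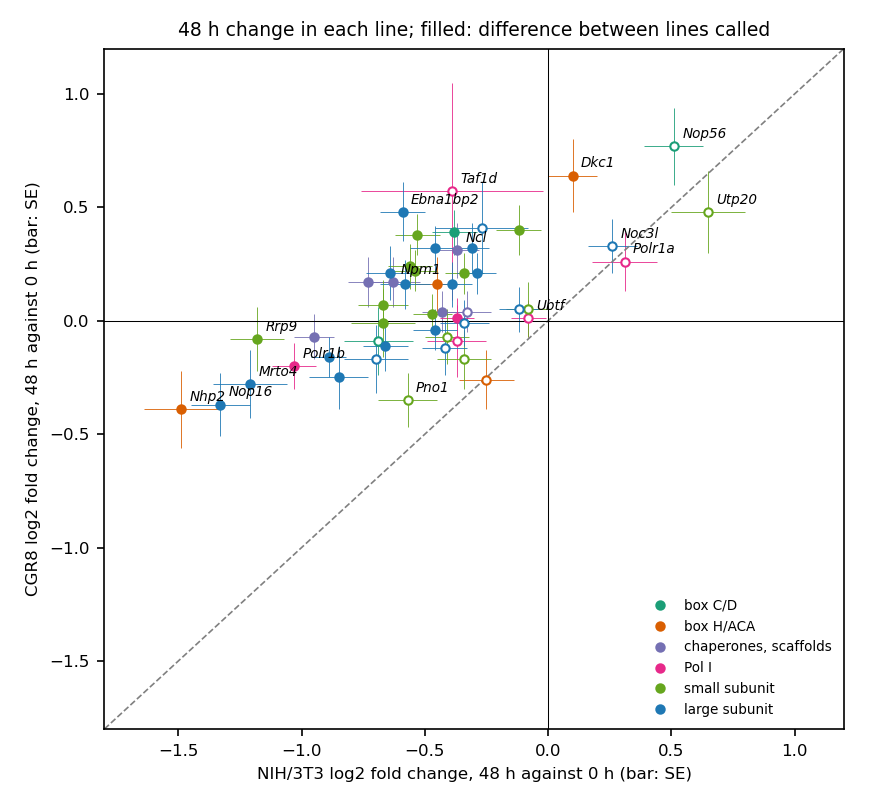
Log2 fold change at 48 h against 0 h in NIH/3T3 (x axis) and CGR8 (y axis) for the 52 members with SE bars, coloured by role, where filled points differ between the lines at a BH-adjusted p under 0.05 and the dashed line marks equal changes. All 33 filled points lie above that line, with Nhp2, Nop16 and Rrp9 at the left.

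Between 5 h and 48 h 45 members fell and 3 rose in NIH/3T3, against 31.4% of all genes lower and 34.1% higher (65.6% in either direction). The groups did not overlap for 50 members, as for 79.7% of all genes. Nhp2 fell by 1.98 on the log2 scale (SE 0.15, BH-adjusted p = 1.9e-08), Mrto4 by 1.78 (SE 0.15, adjusted p = 5.3e-08) and Nop16 by 1.77 (SE 0.12, adjusted p = 7.9e-09). Taf1d fell by 1.41 (SE 0.37, adjusted p = 0.00336). The rises were those of Utp20 (0.76 ± 0.15, adjusted p = 4.0e-04), Polr1a (0.51 ± 0.13, adjusted p = 0.00219) and Tcof1 (0.31 ± 0.10, adjusted p = 0.0121). With the length trend removed these 3 values were 0.10, -0.16 and -0.01, and no member rose.

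In CGR8 13 members rose and 15 fell from 5 h to 48 h. The members higher were 25% of the 52 and those lower 28.8% (53.8% in either direction). Of all genes 28.9% were higher and 28.6% lower (57.5% in either direction). The members' shares are near these and are no result about the members. Utp20 rose by 1.16 ± 0.18 (BH-adjusted p = 6.8e-05), Tcof1 by 0.70 ± 0.10 (adjusted p = 1.7e-05) and Polr1a by 0.58 ± 0.13 (adjusted p = 0.00141). Nhp2 fell by 1.26 (SE 0.17, adjusted p = 1.8e-05), Nop10 by 1.08 (SE 0.13, adjusted p = 6.5e-06) and Pno1 by 1.06 (SE 0.12, adjusted p = 3.1e-06). All 15 falls were also called in NIH/3T3, where they were 33.3% of the 45 falls. Since 45 of the 52 members fell in NIH/3T3 and the overlap over all genes was not counted, this does not set the members apart. Of the 13 rises in CGR8 8 were called as falls in NIH/3T3 (Lyar, Polr1b, Utp15, Heatr1, Nop14, Noc3l, Rrp1b and Ddx21), which is 61.5% of those rises and 17.8% of the falls, and 3 rose in both. With 86.5% of all members falling in NIH/3T3, this count does not set those genes apart. A difference between the lines was not tested for the change from 5 h to 48 h. Here too length moved with the change, with rho of 0.64 across the members and 0.48 across all genes. The split was 20 higher and 12 lower with library size alone and 8 and 15 with the length trend removed, under which Polr1a turned to -0.19. These changes share their 5 h libraries with the 5 h changes given above.

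Of the 52 members 7 (13.5%) host snoRNA genes in the GENCODE M21 annotation, against 1.27% of protein-coding genes: Nop56, Nop58, Dkc1, Ncl, Taf1d, Wdr43 and Gnl3. A host gene's mRNA is spliced from a precursor whose introns give snoRNAs, the guide RNAs that the proteins of the first group bind. Below, 1 such RNA is shown for 4 hosts, because the products of these introns and the proteins Nop56, Nop58 and Fbl are parts of the same particle. Each sequence is the annotated snoRNA written as DNA, 5′ to 3′, in an intron of the host's transcript with the longest coding sequence (those of Taf1d lie outside that transcript). Capitals mark the first TGATGA (box C) within the first 18 bases and the last CTGA (box D) near the 3′ end. Coordinates are those of GRCm38, not of the build of the counts.
Snord110 in Nop56, chr2:130275506-130275573, plus strand: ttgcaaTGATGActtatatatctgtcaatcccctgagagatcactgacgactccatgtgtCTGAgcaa
Snord11 in Nop58, chr1:59704790-59704873, plus strand: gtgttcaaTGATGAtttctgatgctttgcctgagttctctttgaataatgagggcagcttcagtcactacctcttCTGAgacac
Snord82 in Ncl, chr1:86356261-86356330, minus strand: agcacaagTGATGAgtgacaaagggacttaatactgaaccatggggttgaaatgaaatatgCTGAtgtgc
Snord92 in Wdr43, chr17:71631281-71631365, plus strand: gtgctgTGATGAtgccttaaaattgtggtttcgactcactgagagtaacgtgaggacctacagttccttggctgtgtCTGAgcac

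At 5 h 6 of the 7 hosts rose and 1, Ncl, fell in NIH/3T3, with a median log2 fold change of 0.49, against 0.15 for the other members and 0.00 for all 218 host genes tested, of which 58 rose and 58 fell. In CGR8 at 5 h 2 of 7 rose and none fell, beside 64 rises and 77 falls among all 238 host genes tested. At 48 h in NIH/3T3 1 host member, Nop56, rose and 3 fell, beside 49 and 73 of all 218. Counts over 7 genes are too small to set the members apart from other hosts. Taf1d varied widely between replicates. In CGR8 Taf1d was at 73, 24.9 and 93.2 CPM at 0 h, at 31.5, 136 and 163 CPM at 2 h and at 150, 66.8 and 163 CPM at 5 h. Its fold changes of 0.97 ± 0.48 at 1 h (BH-adjusted p = 0.637), 0.79 ± 0.48 at 2 h (adjusted p = 0.257) and 0.99 ± 0.48 at 5 h (adjusted p = 0.0956) were not called. In NIH/3T3 it was at 36.2 CPM in 2 h replicate A and at 159 and 162 CPM in the other two (0.83 ± 0.37, adjusted p = 0.0883). Gnl3, which codes for nucleostemin, was low in the same CGR8 libraries, at 270 CPM in 0 h B against 371 and 407, at 271 in 2 h A against 384 and 442, and at 265 in 5 h B against 438 and 441. Taf1d was called at 5 h without CGR8 5 h replicate B and at 2 h without CGR8 2 h replicate A.

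Promoters were examined because most members moved together at 48 h in NIH/3T3. RefSeq windows of 300 bases (250 before to 50 after the start, GRCm38.p6) were found for 46 of the 52 members. The E-box CACGTG, which reads the same on both strands and is the letters that MYC and other bHLH factors are known to bind, was in 10 of the 46 (21.7%), against 8.09% of all 27025 promoters and 11.6% of the 9547 whose genes were tested in NIH/3T3. Of the 35 with a window that fell at 48 h 9 held it. The remaining gene with the E-box was Utp20, which rose. The GC box GGGCGG (either strand) was in 71.7% of the members, against 38.2% of all and 68.9% of tested promoters, and TATAAA (either strand) in 4.35%, against 15.7% and 8.53%. These are matches of letters in a window, with no measurement of binding. The 30 bases around an E-box (capitals) are shown for 5 members that fell, on the gene's strand. Rrn3 holds a pair of them, of which the one nearer the start is shown.
Nop2, chr6:125131811-125131840, plus strand: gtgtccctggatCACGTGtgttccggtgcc
Utp18, chr11:93885769-93885798, minus strand: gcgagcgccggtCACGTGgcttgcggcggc
Rrn3, chr16:13780639-13780668, plus strand: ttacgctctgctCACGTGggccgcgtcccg
Pes1, chr11:3963965-3963994, plus strand: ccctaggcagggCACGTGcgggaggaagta
Wdr43, chr17:71616220-71616249, plus strand: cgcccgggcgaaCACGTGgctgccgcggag

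Other genes of the pathway, from a list of 142 symbols that holds further polymerase I subunits, snoRNP, processome, large subunit and exosome genes, were counted in the same fits. Of the 141 tested, 104 (73.8%) fell and 4 (2.84%) rose at 48 h in NIH/3T3, where 25.6% of all genes fell and 26.7% rose, and the difference between the lines was called for 81 (57.4%), all higher in CGR8, against 9.78% of all genes higher. The largest falls in NIH/3T3 were those of Pop1 (-1.56 ± 0.09), a protein of RNases P and MRP, and Dis3 (-1.19 ± 0.07), a nuclease of the exosome. The largest rises were those of Pih1d1 (0.39 ± 0.16) and Rpp38 (0.32 ± 0.12). In CGR8 at 48 h 20 rose and 6 fell (14.2% and 4.26%, against 12.2% and 15.6% of all genes), with Utp14a (0.95 ± 0.12) and Nol8 (0.82 ± 0.17) highest and Sbds (-0.80 ± 0.11) and Rrp7a (-0.63 ± 0.17) lowest.

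Earlier, at 5 h, 64 of the 141 pathway genes rose and 16 fell in NIH/3T3 (45.4% and 11.3%, against 24% and 27.1% of all genes). In CGR8 65 rose and 18 fell (46.1% and 12.8%, against 24.9% and 27.2%), where 30.8% of the 52 members rose and 19.2% fell. Rpp38 (1.39 ± 0.12) and the kinase Riok2 (1.12 ± 0.17) rose most in NIH/3T3, and Pelp1 (-0.68 ± 0.11) and Dhx37 (-0.62 ± 0.12) fell most. In CGR8 the largest rises were those of Polr2k (1.60 ± 0.18), a small subunit shared by the nuclear RNA polymerases, and Znhit3 (1.31 ± 0.15). Taf1c (-1.01 ± 0.12), a subunit of SL1 like Taf1d, and Nol9 (-0.94 ± 0.11) fell most. All of the exosome genes called at 5 h rose, 8 of the 13 tested (61.5%) in each line. At 2 h 53 rose and 9 fell in NIH/3T3 (37.6% and 6.38%, against 16.1% and 18.9% of all genes) and 27 rose and 8 fell in CGR8 (19.1% and 5.67%, against 8.97% and 11%), with Rpp38 among the 2 largest rises in both (0.80 ± 0.12 and 0.94 ± 0.16).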

How the data were processed

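RNA was prepared with RNeasy columns and sequenced as stranded mRNA libraries, per the labels' protocols. STAR, DESeq2 and the build GRCm39 are named in the submitters' processing notes, and the counting tool, its use of strand and the annotation release are not given in the sources used here. The deposited values are raw counts per Ensembl gene for 30 libraries, made by the authors, with 18.2 to 30.5 M (mega) counts each, and 0 columns could not be mapped to a sample. Symbols were matched to 51880 of 57186 identifiers.

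Counts were tested with edgeR 4.0.16 (R 4.3.3): filterByExpr (minimum count 10, total 15), TMM factors, the quasi-likelihood test and BH adjustment over all genes tested, with a threshold of 0.05. Changes over time were fitted in the 15 libraries of a line, and differences between lines in all 30. CPM of the members are on each line's own TMM scale and compare times within a line, and levels per kb are on the scale of all 30. CPM of the cell markers are scaled by library size alone. The edgeR test was also run on simulated counts with known changes. These held no length trend between libraries and far fewer changed genes than the data. That run therefore does not measure the errors of the calls given here. Alternatives were RLE factors, library size alone, no filter, a mean of at least 5 CPM, a replicate block, DESeq2 1.42.0, voom with sample quality weights (limma 3.58.1), the compared groups alone and each library left out. Removal of a lowess trend (span 0.3) with transcript length was chosen after seeing the data. The trend was fitted in each library to the genes' log2 CPM minus their mean over the libraries of the fit. It entered the edgeR model as offsets, so it also changes the spread within groups and the p-values. No replicate pair of a group agreed within sampling noise (lowest chi-square per degree of freedom 1.75).

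The members, the lists and the tests were chosen with earlier results of these data known. Full statistics were given for the 3 largest called rises and falls per comparison with at least 10 CPM, for fixed genes of each role, and for the 2 largest called changes per direction of the pathway list. Other members were named after their values were seen. Transcript lengths and snoRNA genes are from GENCODE M21 (GRCm38) and promoters from RefSeq (GRCm38.p6), matched by symbol, and no coordinate was converted between builds.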

Additional observations from a re-analysis of the deposited data

Results flagged for a closer look

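The change from 0 h to 5 h in CHX differed between the lines for 6 members (11.5%), against 13.3% of all genes. The change from 0 h to 48 h differed for 33 (63.5%), against 21.9% of all genes. Both counts are from a test of the difference itself. The share at 5 h is near that of all genes and is no result about the members. Differences on the log2 scale at 5 h (CGR8 minus NIH/3T3) included 0.68 for Nop10, 0.54 for Ebna1bp2, -0.48 for Wdr43, -0.61 for Rrp1b and -0.64 for Heatr1. The calls of Nop10, Ebna1bp2 and Ubtf were among those that depended on single libraries. At 48 h the largest differences were 1.09 for Nhp2, 1.08 for Rrp9 and 1.05 for Ebna1bp2, and all 33 were higher in CGR8.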

How the results depend on the processing

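For 48 h against 0 h between 40 and 48 members were called in NIH/3T3 (main 43). Between 29 and 40 were called for the difference between the lines in the 48 h response (main 33). No called member of these 48 h comparisons changed sign under the alternatives run. At 1 h voom called 13 members in NIH/3T3 (2881 of all 13941 genes), and without a filter 1 was called in CGR8 and 1 for the difference between the lines. The median at 1 h in NIH/3T3 ran from -0.01 (without NIH/3T3 1 h replicate C) to 0.04 when single libraries were left out. At 2 h voom called 41 members in NIH/3T3 (main 20), beside 7827 of all 13941 genes (main 4878). Leaving out single libraries gave 14 to 30 members. In CGR8 at 2 h (main 3) the counts were 8 with library size alone, 6 without a filter, 10 at a mean of at least 5 CPM, 9 with DESeq2, 13 with voom, 0 with the compared groups alone, 6 with the length trend removed and 0 to 10 without single libraries. At 48 h in CGR8 (main 10) voom called 22, and 4 to 9 were called without single libraries. For the 5 h difference between the lines (main 6) 10 were called with library size alone, 10 at a mean of at least 5 CPM, 11 with DESeq2, 20 with voom and 4 to 12 without single libraries. Over all genes voom called 4609 of 15933 in CGR8 at 2 h, 7063 of 15933 there at 48 h and 6373 of 17549 for the 5 h difference. With the length trend removed Polr1a turned to -0.2 (NIH/3T3, 48 h), -0.16 (NIH/3T3, 48 h against 5 h) and -0.19 (CGR8, 48 h against 5 h), Tcof1 to -0.01 (NIH/3T3, 48 h against 5 h) and Heatr1 to 0.1 (CGR8, 5 h). Apart from fewer samples or other genes tested in some fits, the cause was not tested. Whether the replicate letters pair the samples could not be decided. Same-letter pairs with deviations correlated over 0.1 were 3, 8 and 2 of 10 in NIH/3T3 (A, B and C). In CGR8 they were 4, 4 and 7 of 10. In each line 6 of 15 libraries correlated best with their own letter. The deviations also followed transcript length, so this check cannot exclude pairing. The replicate block gave counts of 19, 31 and 43 for NIH/3T3 at 2, 5 and 48 h, 3, 26 and 10 in CGR8, 8 and 33 for the differences at 5 and 48 h and 38 between the untreated lines.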
